A study of Mus musculus with 6 samples.

Results

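Accessible chromatin was examined at the genes for the cytosolic ribosomal proteins in mouse CD8+ T cells kept with palmitate or as control. The genes were chosen by symbol alone: the large-subunit Rpl and small-subunit Rps genes, the stalk genes Rplp0, Rplp1 and Rplp2, and Rpsa. This gave 81 protein-coding genes, and every region of the count matrix within 1 kb of either end of such a gene was taken as a member. There were 81 such regions among 24605 in all, at 74 of the 81 genes: 50 regions at 46 large-subunit genes and 31 regions at 28 small-subunit genes. The rule itself uses no measured value.

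The libraries were made by ATAC-seq, in which a transposase cuts and tags DNA where chromatin is open, so that read counts in a region measure its accessibility. All 6 libraries came from cells of the WT genotype whose stated source was mouse pancreas, lymph nodes and spleen, and 50000 sorted cells went into each. The palmitate group (3 libraries) had 100 µM palmitate, a saturated fatty acid, in T cell medium for 48 h, and the control group (3 libraries) carries the treatment label Control. The treatment protocol deposited with the control libraries is worded like that of the palmitate libraries and names palmitate too, so the groups rest on the titles and treatment labels alone. The sources used here name no vehicle, mouse strain, sex, age or activation state of the cells, and do not say that the libraries of a group came from separate animals or cultures. The p-values therefore rest on library-to-library spread that may be technical only.

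A ribosome is built from ribosomal RNA and one copy of nearly every protein of this family, so the genes are among the most actively transcribed in any growing cell. T cells that leave rest make many new ribosomes, and the transcription factor Myc and the kinase complex mTORC1 drive this. Most of these genes lack a classical TATA box, carry binding sequences for factors such as the ETS-family protein GABP, Sp1 and YY1, and begin their transcripts in a run of pyrimidines, the terminal oligopyrimidine or TOP motif, through which mTORC1 controls their translation.

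Of the 81 genes, 61 were matched in the RefSeq promoter table (mm10), each entry running 250 bases before to 50 bases from the annotated start. Printed here are 130 bases, 100 before the start and 30 from it, of 9 promoters: 6 whose regions were called higher under palmitate (Rpl13a, Rps19, Rps10, Rps21, Rpl27a, Rpl37), 2 with long pyrimidine runs whose regions did not pass the threshold (Rpl7a, Rpl35) and Rpl13, whose region pointed the other way. Each is given 5′ to 3′ on the strand of the gene, and the positions are Rpl13a chr7:45128716-45128845 (minus strand), Rps19 chr7:24884492-24884621 (plus strand), Rps10 chr17:27635215-27635344 (minus strand), Rps21 chr2:180257279-180257408 (plus strand), Rpl27a chr7:109519095-109519224 (plus strand), Rpl37 chr15:5116513-5116642 (plus strand), Rpl13 chr8:123102250-123102379 (plus strand), Rpl7a chr2:26910707-26910836 (plus strand) and Rpl35 chr2:39005102-39005231 (minus strand). Capitals mark an ETS core (CCGGAAG), an Sp1 box (GGGCGG, or CCGCCC where it lies on the opposite strand), or a run of at least 5 C or T bases over the annotated start; in Rps21 and Rpl35 an Sp1 box overlaps that run.
Rpl13a: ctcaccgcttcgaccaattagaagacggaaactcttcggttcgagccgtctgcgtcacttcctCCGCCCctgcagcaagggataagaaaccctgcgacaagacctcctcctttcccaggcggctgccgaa
Rps19: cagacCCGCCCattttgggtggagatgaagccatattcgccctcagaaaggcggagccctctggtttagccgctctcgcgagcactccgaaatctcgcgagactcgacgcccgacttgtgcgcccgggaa
Rps10: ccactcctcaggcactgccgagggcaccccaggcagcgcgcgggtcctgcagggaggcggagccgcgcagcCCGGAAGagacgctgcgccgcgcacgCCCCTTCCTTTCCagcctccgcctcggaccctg
Rps21: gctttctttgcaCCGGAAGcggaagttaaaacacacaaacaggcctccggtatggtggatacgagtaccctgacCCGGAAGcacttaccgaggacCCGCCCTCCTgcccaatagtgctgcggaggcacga
Rpl27a: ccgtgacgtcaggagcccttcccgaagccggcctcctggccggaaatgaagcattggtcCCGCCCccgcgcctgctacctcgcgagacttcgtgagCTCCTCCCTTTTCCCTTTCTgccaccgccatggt
Rpl37: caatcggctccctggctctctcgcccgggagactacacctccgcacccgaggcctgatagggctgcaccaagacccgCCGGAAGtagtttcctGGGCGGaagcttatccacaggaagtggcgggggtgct
Rpl13: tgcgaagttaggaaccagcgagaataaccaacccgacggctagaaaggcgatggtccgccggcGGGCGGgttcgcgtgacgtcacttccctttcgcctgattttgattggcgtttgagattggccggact
Rpl7a: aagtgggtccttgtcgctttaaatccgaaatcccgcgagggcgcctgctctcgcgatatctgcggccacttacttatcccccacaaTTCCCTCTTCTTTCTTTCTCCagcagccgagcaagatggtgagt
Rpl35: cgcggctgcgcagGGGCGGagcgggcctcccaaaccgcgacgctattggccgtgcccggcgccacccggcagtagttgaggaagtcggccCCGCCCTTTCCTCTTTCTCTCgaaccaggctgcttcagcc
The start is base 101 of each line. The capitals near the end of the Rps10, Rpl27a, Rpl7a and Rpl35 lines hold runs of 13, 20, 21 and 18 pyrimidines over the start. Each of these runs begins before the start, so only part of it lies in the transcript.

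Over the whole family, the ETS core was found on either strand in 39.3% of the 61 promoters, against 20.4% of the 8205 protein-coding promoters of genes with a region at a gene end and 11.9% of all 17492 protein-coding promoters of this length. A pyrimidine run over the start was found in 31.1% of the 61, against 9.08% and 8.56% in those sets. The Sp1 box was found in 57.4%, against 67.3% and 46.3%. The YY1 core AGATGGC was found in 11.5%, against 7.61% and 6.18%, the NRF1 core GCATGCG in 6.56%, against 7.19% and 4.49%, and the TATA box TATAAA in 9.84%, against 6.35% and 13.3%. These are matches of letters only, not bound sites. A pyrimidine run beside the listed start but not over it was not counted, so that share depends on where starts are listed. Among promoters whose start lay in a member region, the ETS core was in 9 of the 22 that were higher under palmitate and in 10 of the 30 not called, and the pyrimidine run was in 7 of 22 and 11 of 30. These shares were not tested against each other.

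**Figure D1:**
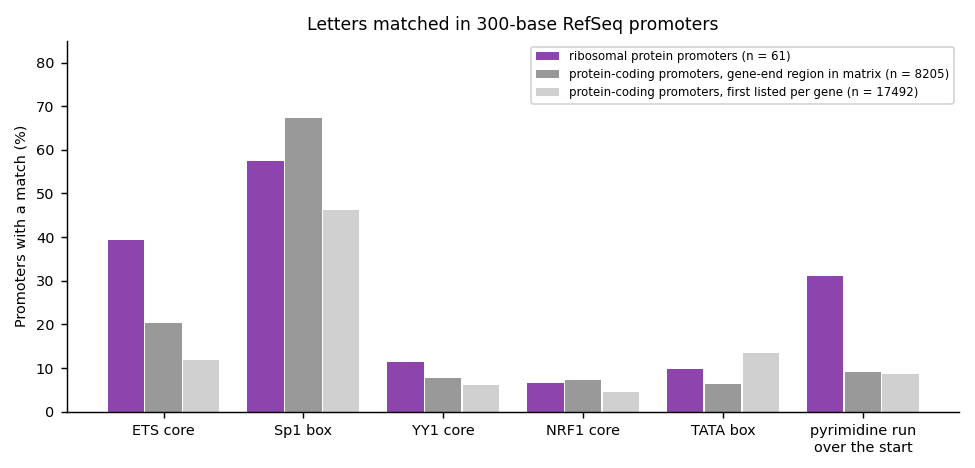
Share of 300-base RefSeq promoters (vertical axis, percent) that hold each sequence feature, for ribosomal protein genes (left bar of each group), protein-coding genes with a region at a gene end (middle bar) and all protein-coding genes (right bar). The ETS core stands at 39.3% and the pyrimidine run at 31.1% for ribosomal protein promoters, the features in which they differ most from the other sets.

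Within the regions of the matrix, the 6 libraries held 2614890, 3089230 and 2720569 counts under palmitate and 2219136, 2855574 and 2852087 in control. The deposited peak lists held 20201 to 21502 peaks under palmitate and 22359 to 27122 in control. Of the counts within regions, 69.3% to 69.9% lay at gene ends under palmitate, against 64.7% to 65.5% in control. Control library 2 stood apart from the other controls: the chi-square of its counts over regions, per degree of freedom, was 2.04 and 2.03 against controls 1 and 3, which differed from each other by 1.20. CPM here are counts scaled to a common library size, corrected by edgeR's TMM factors (0.953 to 1.05). All 10 genes of a CD8 T cell marker list (among them Cd3e and Cd8a) had a region, with 0 called in either direction by edgeR's quasi-likelihood test (0 also at an unadjusted p under 0.05, with DESeq2 and with limma-voom), and a summed level of 369 to 432 CPM under palmitate and 376 to 432 CPM in control. Cd4, Foxp3 and Csf1r had no region within 1 kb of either end. A region was found for 1 of 4 CD4 T cell, 1 of 8 B cell, 3 of 8 myeloid, 2 of 5 NK cell and 1 of 9 pancreas genes, and 1 region of the CD4 list and 1 of the myeloid list were called higher. The summed levels were 58.7 to 94.5 CPM under palmitate and 51.2 to 73.2 CPM in control for the CD4 list, 11.1 to 22.4 and 9.32 to 15.3 CPM for the B cell list, 36.0 to 42.2 and 28.3 to 37.7 CPM for the myeloid list, 75.7 to 84.4 and 59.3 to 67.3 CPM for the NK list, and 28.9 to 42.6 and 35.4 to 44.4 CPM for the pancreas list. The NK list rests on the 2 regions at Eomes and Tyrobp, neither called, since Ncr1, Klrb1c and Klrk1 had none. Its summed levels did not overlap between the groups. The part of these other lists in the results that follow was not tested. In bulk samples, more cells with an open region and a more open region per cell cannot be told apart.

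The ribosomal protein regions were strong peaks in both groups. The median region held 65.2 CPM over the 6 libraries, against 47.3 CPM for all gene-end regions and 19.3 CPM for all regions, and 79 of the 81 lay in all 6 peak lists. The exceptions, each in 3 lists, were the region inside Rpl19 and the distal one at Rps10. All 81 passed the filter on low counts, so that none is missing from the comparison. Per kb of region, the highest level was at Rpl13a, a large-subunit gene with 4 small nucleolar RNA genes in its span, at 449 ± 17.9 CPM per kb under palmitate and 327 ± 22.4 CPM per kb in control (SD, n = 3 each). Rps19, a small-subunit gene mutated in human Diamond-Blackfan anaemia, had 359 ± 15.4 CPM per kb under palmitate and 270 ± 10.9 CPM per kb in control, second to it by the mean over all libraries. That place was not separated from the next beyond the spread of the libraries: Rpl37 had 330 ± 27.5 and 273 ± 8.12 CPM per kb, and the stalk gene Rplp0 had 304 ± 18.4 and 255 ± 26.5 CPM per kb. At the low end, Rpl37a had 25.1 ± 1.47 CPM per kb under palmitate and 22.0 ± 2.29 CPM per kb in control.

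The question the design states is how palmitate changed these cells, here put to the ribosomal protein genes. In edgeR's quasi-likelihood test over all 24316 regions that passed the filter, 26 of the 81 member regions were higher under palmitate and 1 was lower at a Benjamini-Hochberg adjusted p under 0.05. That is 32.1% higher and 1.23% lower, to be read against 25.0% higher and 2.47% lower among the 9408 gene-end regions tested, and 11.9% higher and 12.7% lower among all regions. The share higher is thus near that of gene ends in general, and is not a result particular to these genes. The changes were small: the 26 folds ran from 1.17 to 1.44, the median log2 fold change (palmitate over control) of the 81 members was 0.21, and the same median was 0.14 for all gene ends and -0.05 for all regions. In 75 of the 81 the change was positive, against 6755 of the 9408 gene-end regions and 11115 of all 24316 regions. The palmitate libraries lay wholly above the control libraries in 47 members (58.0%) and wholly below in 4, against 35.5% and 6.66% of gene-end regions.

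How libraries were scaled decided most of these calls. Across the whole matrix, strong regions were higher under palmitate and weak ones lower, and the members followed this in part. Of the 27 strongest by mean CPM (86.4 to 280) 17 were higher, and of the middle 27 (54.0 to 83.6) 7. Of the weakest 27 (6.70 to 53.3) 2 were higher and 1 lower. In that order the median log2 fold changes were 0.25, 0.19 and 0.18. Stronger regions also hold more reads, so calls come more easily there. Spearman's rho between mean CPM and log2 fold change was 0.42 over the 81 regions, which share the same 6 libraries. When each library was scaled by a curve fitted to counts against mean strength (trended offsets), which removes any change shared by regions of like strength, 1 member stayed higher and 1 lower (at Rpl3); the first call was lost in 4 of the 6 fits that also left out 1 library. The background then was 2.47% higher and 1.49% lower among gene ends and 2.09% and 4.35% among all regions. The median log2 fold change of the members was then 0.07, against 0.05 for gene ends and 0.01 for all regions. The estimate was positive in 62 of 81 members, against 5735 of 9408 gene-end regions and 12565 of all 24316 regions. Whether the trend with strength is a change in the cells or in the libraries cannot be told apart here.

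**Figure D2:**
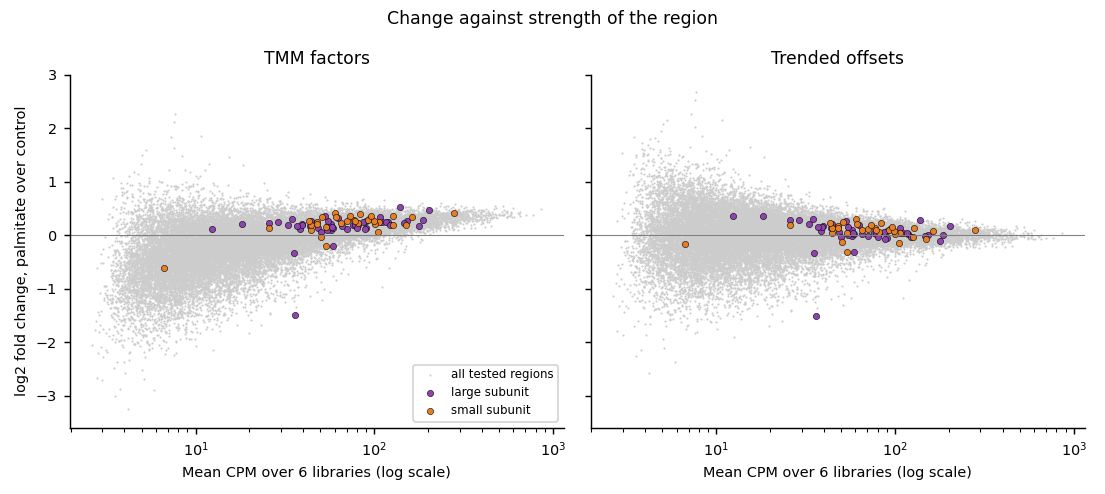
The log2 fold change, palmitate over control (vertical axis), against mean CPM over 6 libraries (log scale, horizontal axis) for all 24316 tested regions (grey) and the large-subunit and small-subunit members (coloured), with TMM factors at left and trended offsets at right. At left the cloud tilts upward with strength and the members lie on its upper strong side, at a median of 0.21; at right they centre at 0.07, and 1 member, the region outside Rpl3, lies far below in both.

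In each subunit 13 regions were higher under palmitate. Of the 50 large-subunit regions 13 were higher and 1 lower, with a median log2 fold change of 0.19; of the 31 small-subunit regions 13 were higher and 0 lower (22 had an unadjusted p under 0.05 in either direction, and 0 were lower with DESeq2 or limma-voom), with a median of 0.25. By trended offsets the medians were 0.06 and 0.10. The summed CPM of large-subunit over that of small-subunit regions was 1.46, 1.43 and 1.42 in the palmitate libraries and 1.50, 1.49 and 1.47 in the control libraries. The means were 1.44 ± 0.025 under palmitate and 1.49 ± 0.019 in control (SD, n = 3 each). All palmitate ratios lay below all control ratios, with the highest palmitate and lowest control library close together, and no test of the difference between subunits was made.

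**Figure D3:**
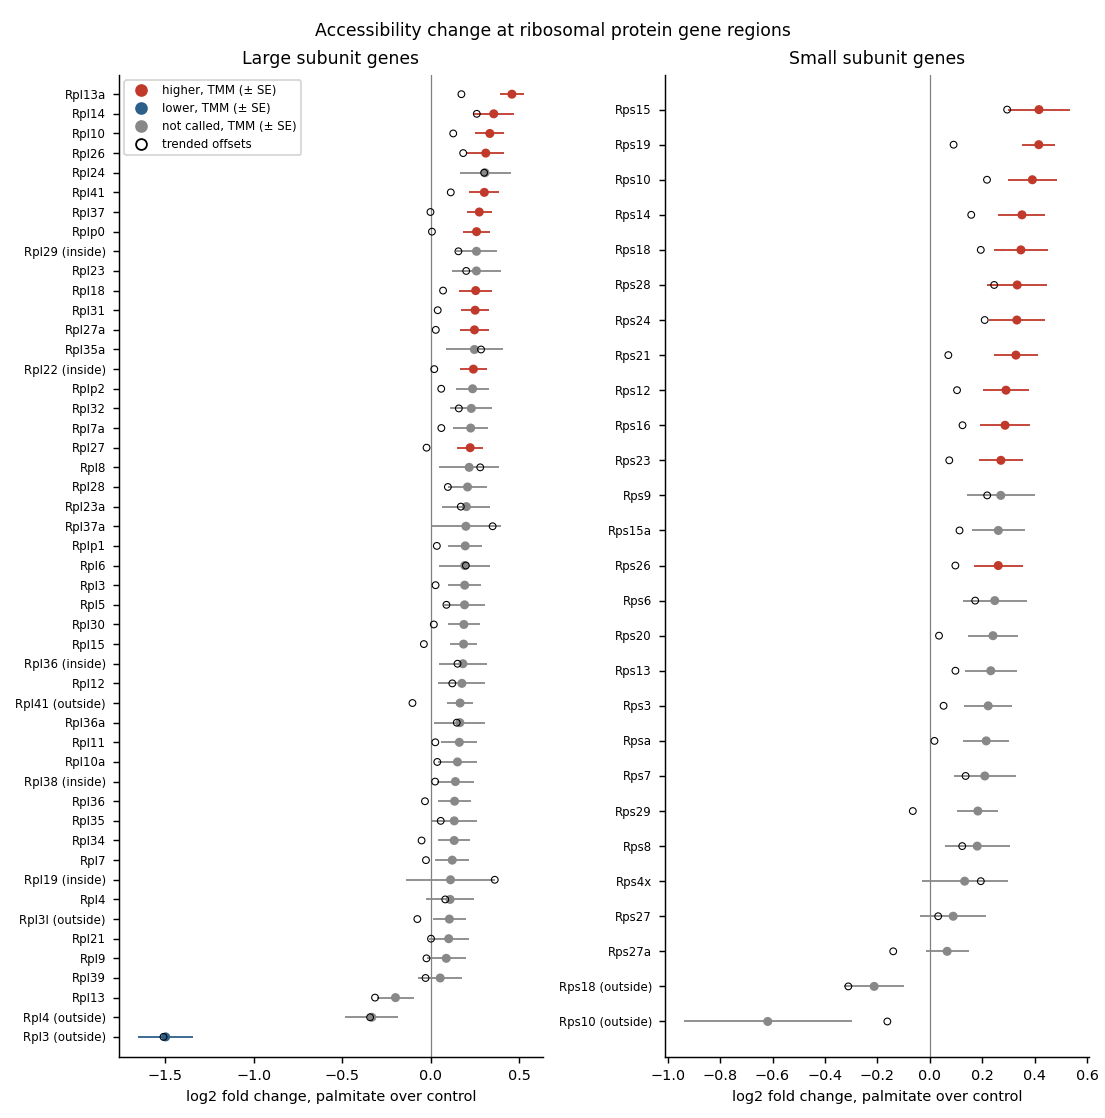
The log2 fold change, palmitate over control (horizontal axis), of the member regions by gene, large subunit at left and small subunit at right. Filled points with bars are TMM estimates ± SE (red higher, blue lower, grey not called), open circles the trended-offset estimates; most filled points lie to the right of 0 and most open circles lie closer to it, and the region outside Rpl3 stands alone at -1.50.

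Among the large-subunit genes, Rpl13a (chr7, 45128658 to 45129179, over the promoter printed above) held 223, 239 and 240 CPM under palmitate, against 168, 160 and 183 CPM in control. The groups did not overlap, with a log2 fold change of 0.46 ± 0.07 (edgeR adjusted p = 1.99e-05), and 0.17 with trended offsets (edgeR adjusted p = 0.0786). Rpl10, an X-linked gene whose protein joins the large subunit late in its assembly, held 117, 113 and 128 CPM under palmitate, against 98.9, 90.5 and 95.2 CPM in control (log2 fold change 0.33, edgeR adjusted p = 0.0033). It was the 1 called among the 4 X-linked regions. The others were at Rpl36a, Rpl39 and Rps4x, with log2 fold changes of 0.16, 0.05 and 0.13.

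The stalk of the large subunit recruits elongation factors. At Rplp0, the base of the stalk, the region held 158, 163 and 178 CPM under palmitate and 153, 142 and 124 CPM in control, which did not overlap (log2 fold change 0.26, edgeR adjusted p = 0.0147). The stalk dimer genes Rplp1 and Rplp2 had log2 fold changes of 0.20 and 0.24 and did not pass (edgeR adjusted p = 0.135 and 0.0605). Around the mouth of the tunnel through which the new protein leaves, Rpl31 (0.25) and Rpl26 (0.31) were called higher, while Rpl23a (0.20) and Rpl35 (0.13) were not. Rpl5 and Rpl11, which with 5S ribosomal RNA restrain Mdm2, had log2 fold changes of 0.19 and 0.16, neither called (edgeR adjusted p = 0.232 and 0.254).

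Rpl22, without which mouse alpha-beta T cells fail to develop, was called over a start inside its gene. Its region held 131, 129 and 126 CPM under palmitate, against 107, 113 and 106 CPM in control (log2 fold change 0.24, edgeR adjusted p = 0.0209). The libraries of the groups did not overlap. The call at Rpl22 held in 7 of 15 alternative settings. Other large-subunit regions called higher were at Rpl14 (0.36), Rpl41 (0.30), Rpl37 (0.27), Rpl18 (0.25), Rpl27a (0.25) and Rpl27 (0.22). Among the 26, only at Rpl18 did the groups overlap, at 106, 83.9 and 105 CPM under palmitate and 81.9, 84.5 and 79.9 CPM in control, and its call held in 4 of the 15. With trended offsets Rpl27 stood at -0.02 and Rpl37 at -0.0014, so their direction depended on the scaling.

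Among the small-subunit genes, Rps19 had the most counts of any member. Its region (chr7, 24883939 to 24884830) held 305, 331 and 324 CPM under palmitate, against 247, 229 and 245 CPM in control. The groups were well apart (log2 fold change 0.41 ± 0.06, edgeR adjusted p = 2.01e-05). With trended offsets the estimate was 0.09 (edgeR adjusted p = 0.329), so that the region was not told apart from others of like strength.

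Rps15, whose protein lies in the subunit's head near the decoding site, held 59.5, 69.0 and 79.8 CPM under palmitate, against 42.7, 56.6 and 55.4 CPM in control (log2 fold change 0.42, edgeR adjusted p = 0.0101). Its trended estimate was 0.29 (edgeR adjusted p = 0.133), the highest among the 26 regions called higher. Rps23, at the decoding centre itself, had a log2 fold change of 0.27, and Rps16, whose tail touches the tRNA, 0.29; both were called. Rps14 (0.35), Rps28 (0.33) and Rps26 (0.26) were called as well. Rps3 (0.22) and Rps9 (0.27) were not called (edgeR adjusted p = 0.0725 and 0.129). Whether the place of a protein in the subunit bears on these changes was not tested.

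Rps21, whose printed promoter has 2 ETS cores, held 177, 187 and 181 CPM under palmitate, against 155, 120 and 161 CPM in control (log2 fold change 0.33, edgeR adjusted p = 0.0039). Control 2 was the low value. Rps24 (0.33), Rps12 (0.29), Rps18 (0.35) and Rps10 (0.39) were called too. Rps6, the substrate of the S6 kinases below mTORC1, held 48.9, 50.6 and 57.5 CPM under palmitate and 41.0, 48.2 and 42.5 CPM in control; all palmitate values were above, but the region did not pass (log2 fold change 0.25, edgeR adjusted p = 0.135). Rps27a, which encodes ubiquitin fused to a ribosomal protein, was nearly level at 104, 108 and 112 CPM under palmitate and 104, 109 and 96.9 CPM in control (0.07 with TMM factors and -0.14 with trended offsets).

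**Figure D4:**
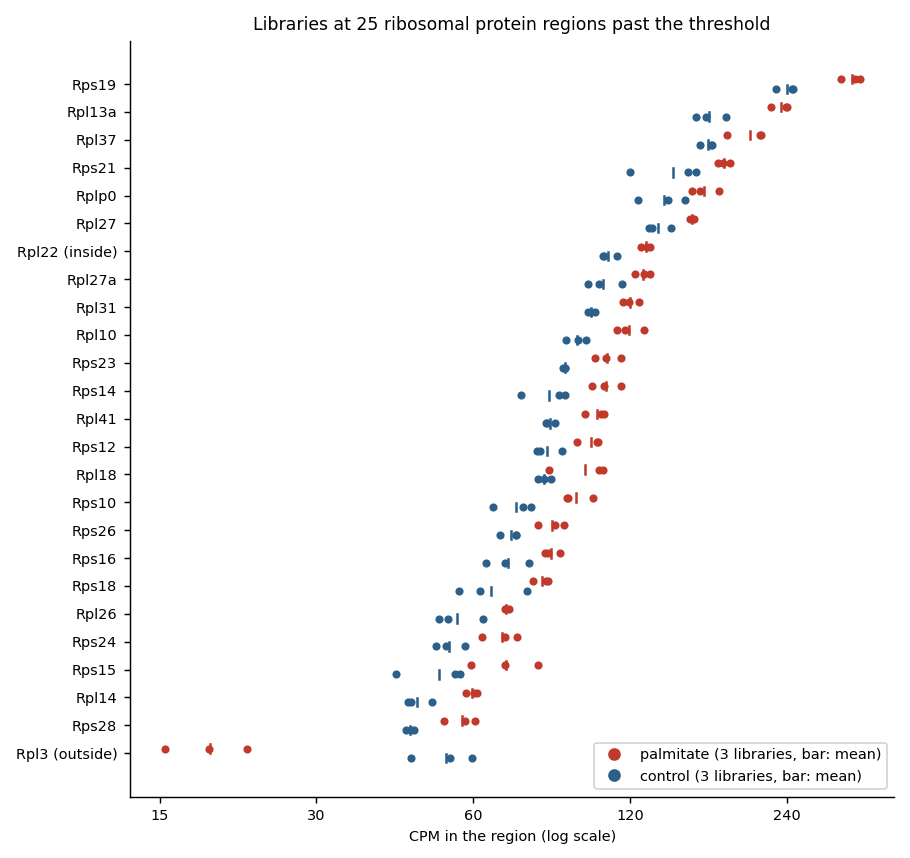
CPM (log scale, horizontal axis) in each library at 25 of the ribosomal protein regions past the threshold, palmitate libraries drawn above control libraries in each row and means as bars. The palmitate points lie right of the control points in all rows but Rpl18, where they overlap, and the region outside Rpl3, where palmitate libraries sit at 15.3 to 22.1 CPM and control libraries at 45.6 to 59.7 CPM.

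Members were also grouped by where they lie relative to the gene. Of the 69 regions lying over an end of their gene, 25 were higher and 0 lower (40 had an unadjusted p under 0.05 in either direction, and 0 were lower with DESeq2 or limma-voom), with a median log2 fold change of 0.23. Of the 5 inside a gene, 1 was higher. Of the 7 lying outside their gene, 0 were higher and 1 was lower (3 had an unadjusted p under 0.05, and 0 were higher with DESeq2 or limma-voom), with a median of -0.21, and of -0.16 with trended offsets. The difference between these positions was not tested. They include regions at Rpl3, Rpl4, Rpl41, Rpl3l, Rps10 and Rps18, and 4 of the 7 are within 1 kb of another protein-coding gene as well.

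The one member called lower lies outside Rpl3, whose protein reaches toward the peptidyl transferase centre. The region (chr15, 80075975 to 80077143, 1169 bp wide) begins 0.638 kb beyond the low-coordinate end of the gene (80077781 to 80083406). The strand of Rpl3 is not in the tables used here, so the end is not named as start or finish. It held 22.1, 18.7 and 15.3 CPM under palmitate, from 56, 55 and 40 counts, against 59.7, 45.6 and 54.1 CPM in control, from 137, 137 and 159 counts. The lowest control library was above the highest palmitate library by more than the range of either group. The log2 fold change was -1.50 ± 0.16 (edgeR adjusted p = 2.18e-07), a ratio of 0.354, and -1.51 with trended offsets (edgeR adjusted p = 5.44e-07). It ranked 3 by p among the 13201 regions with a negative estimate. The authors' peak scores there were 53, 45 and 53 under palmitate and 229, 175 and 224 in control.

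None of the nearest regions around it passed the threshold. The region over the other end of Rpl3 (80083144 to 80083676) held 80.0, 87.0 and 83.2 CPM under palmitate, against 76.3, 77.2 and 66.3 CPM in control. All palmitate values were above all control values there, in the opposite direction to the region outside, but the change did not pass (log2 fold change 0.19, edgeR adjusted p = 0.137). The nearest other regions on either side, 14.5 kb and 14.1 kb away, had log2 fold changes of 0.18 and 0.13 (edgeR adjusted p = 0.386 and 0.719). Rpl3l, the paralogue expressed in muscle, had a region 0.191 kb outside the gene, also near Msrb1, at 0.11 (edgeR adjusted p = 0.436).

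**Figure D5:**
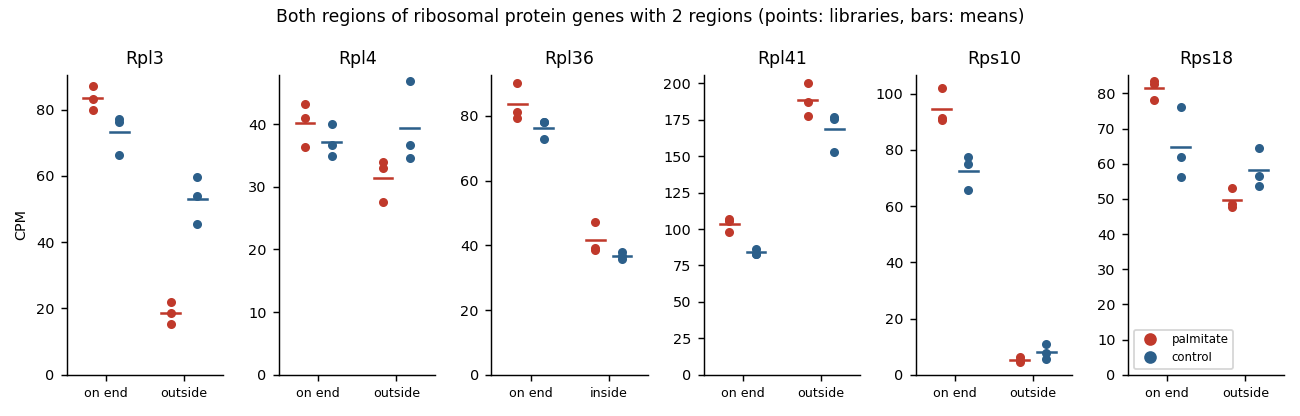
CPM in each library (points; bars are means) at both regions of 6 genes with 2 regions, palmitate left of control. At Rpl3, Rpl4, Rps10 and Rps18 the region on the gene end has the higher palmitate mean and the region outside the higher control mean; at Rpl36 and Rpl41 the palmitate mean is higher at both.

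At 3 other genes the estimates of the 2 regions also had opposite signs. At Rpl4, which lines the exit tunnel and holds 5 small nucleolar RNA genes in its span, the region over the gene end had a log2 fold change of 0.11. The region 0.180 kb outside, also near Snapc5, held 33.9, 27.5 and 33.0 CPM under palmitate and 36.6, 34.6 and 46.9 CPM in control (-0.33, edgeR adjusted p = 0.0998). At Rps18 the end region was called higher, at 78.0, 83.6 and 82.8 CPM under palmitate and 76.3, 56.2 and 61.9 CPM in control (0.35, edgeR adjusted p = 0.0138). The region 0.133 kb outside Rps18, near B3galt4, held 47.7, 53.0 and 48.7 CPM under palmitate and 64.5, 53.6 and 56.4 CPM in control (-0.21, edgeR adjusted p = 0.177). In these 2 outside regions the palmitate values lay below the control values without passing the threshold.

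At Rps10, whose protein is tagged with ubiquitin on collided ribosomes in human cells, the end region held 90.7, 102 and 91.3 CPM under palmitate and 77.6, 65.5 and 74.8 CPM in control (0.39, edgeR adjusted p = 0.0026). The groups were apart. The weak region 0.590 kb outside held 5.33 ± 0.88 CPM under palmitate and 8.07 ± 2.63 CPM in control (SD, n = 3 each). Its log2 fold change of -0.62 did not pass (edgeR adjusted p = 0.159), and was -0.16 with trended offsets (edgeR adjusted p = 0.822). At Rpl41, which encodes a very short basic peptide, the region over the start was called (0.30, edgeR adjusted p = 0.0089), while the stronger one 0.062 kb outside, near Zc3h10, was not (0.17, edgeR adjusted p = 0.0951; -0.10 with trended offsets). Rpl36 had 0.13 over its end, near Micos13, and 0.18 inside, near Lonp1, neither called.

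Of the 69 end regions 2 had negative estimates. The one at Rpl13 held 54.8, 56.1 and 53.3 CPM under palmitate and 63.2, 62.6 and 62.9 CPM in control. The palmitate values were all lower, but the change did not pass (log2 fold change -0.20, edgeR adjusted p = 0.166; -0.31 and 0.0629 with trended offsets). Its printed promoter carries an Sp1 box and a run of 4 pyrimidines over the start. Of the printed promoters called higher, Rpl13a, Rps19 and Rpl37 carry a run of 0 over the listed start, and Rps21, Rps10 and Rpl27a runs of 7, 13 and 20. A run beside the listed start is not counted, and the Rpl13a line has a long one shortly after it. Whether the run bears on the change was not tested.

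By annotated start, 52 members covered one, and 22 of these were higher with a median log2 fold change of 0.24. Of 7 that covered no start listed for their gene, 1 was higher (Rpl18), with a median of 0.11, and the start of 22 more was not in the table. The Rpl18 region does lie over the low-coordinate end of this plus-strand gene (45715467), which is its 5′ end as the gene is placed. The start listed for Rpl18 lay in a region inside the gene, 2251 bp from the nearer end, that the 1 kb rule leaves out, with 76.0 ± 11.6 CPM under palmitate and 55.2 ± 6.23 CPM in control (0.46, edgeR adjusted p = 0.0032). Starts listed for Rpl19 lay in another such region, with 54.0 ± 3.66 CPM under palmitate and 42.9 ± 4.36 CPM in control (0.33, edgeR adjusted p = 0.0440). Neither passed with trended offsets (edgeR adjusted p = 0.0740 and 0.216). The weak member inside Rpl19 itself, also near Cacnb1, had 13.0 ± 1.42 CPM under palmitate and 11.8 ± 3.84 CPM in control.

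Some regions serve more than one gene: 21 members lie within 1 kb of another protein-coding gene, and 4 of them were higher, against 22 of the 60 that do not. The strongest of the 21 were at Rpl37 (near Card6), outside Rpl41 (Zc3h10), Rps21 (Cables2), Rpl15 (Nkiras1) and Rps27a (Clhc1), and their counts cannot be assigned to one gene. The remaining 7 genes had no member region. Rpl17, Rps2 and Rps27l had a region inside the gene at 1225, 1588 and 1062 bp from the nearer end, with log2 fold changes of 0.10, 0.19 and 0.01, none called by edgeR. Rps25, Rpl10l, Rpl32l and Rpl39l had none in their span.

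Farther out, 4 of the 14 regions between 1 and 2.5 kb from an end passed the threshold, 2 higher and 2 lower, which is near the 11.9% higher and 12.7% lower among all regions. A region 1381 bp from Rps9 was lower under palmitate (-1.52, edgeR adjusted p = 0.0001; -1.25 and 0.0042 with trended offsets). One 2213 bp from Rps19 was lower as well (-1.08, edgeR adjusted p = 0.0193), though not with trended offsets (0.328), while the Rps19 promoter region was higher. Those near Rpl18 (above) and Rpl24 (0.26, edgeR adjusted p = 0.0158) were higher.

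Regions at the gene ends of the wider machinery of protein synthesis were counted in the same fit. Of 8 regions at ribosomal protein genes whose symbols escape the rule, 2 were higher: Rpl36al (0.28, edgeR adjusted p = 0.0158) and Fau, which encodes a small-subunit protein fused to a ubiquitin-like one. The Fau region, which it shares with Mrpl49, held 71.0, 84.3 and 82.1 CPM under palmitate, against 52.3, 47.9 and 57.5 CPM in control. The groups were far apart (0.59, edgeR adjusted p = 0.0001), and the call held with trended offsets (0.46, edgeR adjusted p = 0.0072). The Rpl36al region, also near Mgat2, was not called with trended offsets (0.09, edgeR adjusted p = 0.569). Rack1, Rps3a1, Rpl7l1 and Rpl22l1 were not called.

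Of 40 regions at ribosome biogenesis genes, 11 were higher and 2 lower, with a median log2 fold change of 0.15. Fbl, the methyltransferase of ribosomal RNA, had 224 ± 20.7 CPM under palmitate and 148 ± 1.61 CPM in control (0.60, edgeR adjusted p = 1.55e-06; 0.32 and 0.0029 with trended offsets). Rrp9 (0.45) and Ncl, nucleolin (0.35), were higher with TMM factors. With trended offsets neither was called (0.12 and 0.01, edgeR adjusted p = 0.155 and 0.936). The Fbl region also lies near Dyrk1b and the Rrp9 region near Parp3. Bysl, an assembly factor of the small subunit, was lower at a region 776 bp from its end, with 28.6 ± 0.85 CPM under palmitate and 49.5 ± 7.30 CPM in control (-0.78, edgeR adjusted p = 0.0001; 0.0005 with trended offsets). Polr1a, the large subunit of RNA polymerase I, was lower at a region 517 bp from its end (-0.44, edgeR adjusted p = 0.0150; 0.0197 with trended offsets).

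Of 37 regions at translation factor genes 13 were higher and 0 lower (20 had an unadjusted p under 0.05 in either direction, and 0 were lower with DESeq2 or limma-voom), led by Eif4a1 (0.61), Eif5 (0.37) and Eef1g (0.40). Eif4a1 alone of these regions kept its call with trended offsets (0.44, edgeR adjusted p = 0.0035). The Eef1g region also lies near Tut1. Of 21 regions at genes that control growth and ribosomal protein transcription, 7 were higher and 0 lower (10 had an unadjusted p under 0.05 in either direction, and 0 were lower with DESeq2 or limma-voom), led by Sp1 (0.49), Nrf1 (0.41) and Yy1 (0.29), and 0 passed with trended offsets. Of 78 regions at mitochondrial ribosomal protein genes, 21 were higher and 1 lower, with a median of 0.16. Mrps18b (0.45, also near Ppp1r10) and Mrps14 (0.35) were among the higher, but not with trended offsets (edgeR adjusted p = 0.230 and 0.782). Mrpl36 was the lower (-0.56, edgeR adjusted p = 0.0336, and 0.192 with trended offsets). The shares higher, 27.5% for biogenesis, 35.1% for translation factors, 33.3% for growth control and 26.9% for the mitochondrial set, stand beside 32.1% for the cytosolic ribosomal proteins and 25.0% for all gene ends.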

How the data were processed

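The deposited count matrix gives unnormalized read counts of the 6 libraries in 24605 regions (mm10, 142 to 3076 bp wide), and each deposited peak list holds 1 library's peaks with the authors' peak score. The submitters' processing notes name Bowtie2 2.5.1, Trim Galore 0.6.10, MACS2 2.2.8, edgeR 3.40.2 and Picard 2.23.8, without their roles. How regions were merged, how reads were shifted for the transposase and counted, and how reads that map to several places were treated are points the sources used here do not give. The last bears on these genes, since 318 genes in the mm10 RefSeq table (GRCm38.p6) are ribosomal protein pseudogenes by symbol.

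Regions were placed by that table, and starts and strands came from the RefSeq promoter table. Counts were tested in R 4.3.3 with edgeR 4.0.16: TMM factors, filterByExpr (24316 regions kept, 289 not), the quasi-likelihood F-test of palmitate against control, and Benjamini-Hochberg adjustment over all tested regions at 0.05. The script was checked on simulated counts. Alternatives were other scalings, including trended offsets (loess span 0.3, pseudocount 0.5 reads), other filters, DESeq2 1.42.0, limma-voom (limma 3.58.1), a replicate block, each library left out and other distances. Depth was 2219136 to 3089230 counts per library, and the median member region held 182.5 reads in the median library, which limits the precision of each value to the standard errors given.

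The rule for names took in every member past the threshold, the strongest and weakest members, every region of genes with several, those without a start, the largest changes, the leading genes of each pathway list, and shared regions, and others were named after their values were seen. The members, lists and tests were chosen with earlier results of these data known. Results of some genes are not reported here, and counts over the members include them.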

Additional observations from a re-analysis of the deposited data

How the results depend on the processing

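The count of higher members (26) rested on the scaling. It was 31 with DESeq2's size factors (38.3%, against 28.5% of gene-end regions), 13 with upper-quartile factors (16.0%, against 17.4%), 7 with total counts (8.64%, against 11.2%) and 1 with trended offsets (1.23%, against 2.47%), so that under the last 3 scalings the share was below that of gene ends. With total counts 4 were lower (4.94%, against 4.67% of gene-end regions): Rpl13 and the regions outside Rpl3, Rpl4 and Rps18. Total counts shifted the whole matrix by -0.12 (median log2 fold change), to -0.16, with the members at 0.10. DESeq2's Wald test called 12 members higher (14.8%, against 17.0% of gene-end regions). In both directions it called 3124 of all regions, against 5972 in the edgeR fit and 1565 with trended offsets. At a false discovery rate of 0.1, 2 members were lower, beside 17.2% of all regions. Leaving out 1 library gave 3997 to 6165 regions in all, 13 to 26 higher members and 1 to 2 lower. There were 16 higher without palmitate 2 (19.8%, against 18.2% of gene-end regions) and 13 without palmitate 3 (16.0%, against 18.3%). Without control 2, 2 were lower (2.47%, against 2.81%), the regions outside Rpl3 and Rpl4. With trended offsets and 1 library left out, an alternative chosen after seeing the data, 0 to 1 members were higher and 1 to 3 lower. The 1 higher (1.23%) came without palmitate 1 or control 3, against 1.48% and 0.691% of gene-end regions. The 3 lower came without control 2 (3.70%, against 2.25%), and the other fits had 1 lower (1.23%, against 0.467% to 0.956%). Within 0.5 kb of an end 0 members were lower, since the Rpl3 region lies farther out, and within 2.5 kb 3 were. The region outside Rpl3 (-1.62 to -1.37) passed under all 15 alternatives that refit the whole table with 1 change, and Rps21, Rps19, Rpl13a, Rps10 and Rpl10 under all but trended offsets. Of the 26 higher regions, 7 kept their call in fewer than 8 of the 15: Rpl18 (4), Rps26 (5), Rpl26 (5), Rpl27 (6), Rps28 (6), Rpl22 (7) and Rps16 (7).

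Directions that turned were small. With trended offsets these were Rpl7 (-0.027), Rpl34 (-0.052), Rpl9 (-0.024), outside Rpl41 (-0.10), Rps27a (-0.14), Rpl27 (-0.023), Rps29 (-0.065), Rpl15 (-0.039), Rpl37 (-0.0014), Rpl3l (-0.075), Rpl36 over its end (-0.032) and Rpl39 (-0.029). With total counts they were Rps27 (-0.027), Rpl9 (-0.028), Rpl21 (-0.014), Rpl4 over its end (-0.0063), Rps27a (-0.050), Rpl19 (-0.0032), Rpl3l (-0.0096) and Rpl39 (-0.061). Rpl39 also turned with upper-quartile factors (-0.0032). With 1 library left out, Rpl39 ran from -0.041 (without palmitate 1) to 0.17, being -1.24e-05 without control 2, and Rpl19 from -0.10 (without control 1) to 0.32. The cause was not tested. With the replicate number as a block, 25 members were higher (30.9%, against 23.5% of gene-end regions) and 1 lower (1.23%, against 2.07%). Of the 25, 24 were shared with the fit without the block. Deviations of same-numbered libraries from their group means correlated at 0.0004, -0.10 and -0.03, and those of other pairs at -0.07 to 0.09. Counting noise is part of these deviations, so whether the numbers pair the libraries cannot be told from them.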
